A study of Arabidopsis thaliana with 42 samples.

Results

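In 72 Arabidopsis genes, the transcript that held most of the gene's signal before heat was not the one that held most of it after 45 min at 44 °C. These loci were chosen from the deposited values of wild-type seedlings. A locus had to total at least 100 both before heat and after 45 min, 1 transcript had to hold at least 60% of that total before heat, and another had to hold at least 60% after 45 min. The files list 27655 loci, of which 12107 reached the total at both times. Of these, 6234 had at least 2 listed transcripts, so the switching loci were 1.155% of those that could switch. The transcript that led before heat is called the unheated transcript below, and the one that led after 45 min the heat transcript. Their values in unheated wild type and in wild type after 45 min are given as a description only, because they chose the loci.

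The samples were whole 10-day-old seedlings moved to liquid medium and heated at 44 °C in the light. Wild type was Columbia-0 (labelled WT), and the mutant was upf3-1upf1-5 in the same background (labelled upf), which carries alleles of both UPF3 and UPF1. Both genotypes were harvested unheated (0 min) and at 15, 30, 45 and 90 min of heat. A further set of wild-type seedlings was put into medium with cycloheximide (10 μg/L as the labels give it), an inhibitor of translation, and sampled after 15, 30, 45 and 90 min of heat (labelled WT-C15 to WT-C90). No unheated group with cycloheximide and no later unheated group were analysed here, so heat and time in the medium cannot be told apart. Each of the 14 groups had 3 libraries, each from several plants.

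Most plant genes carry introns that the spliceosome removes before export, and heat is known to leave some of them in the RNA. An intron kept in the coding part often brings a stop codon that lies before the normal one. Nonsense-mediated decay (NMD) removes many such RNAs during translation. The UPF proteins are its core factors, so both the mutant and cycloheximide are used to let its targets build up.

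Depth was estimated at 20.4 to 76.4 M reads a library from the smallest steps between values, with a median of 42.8 M. The totals of UPF1 were 1304 to 2310 in the 15 wild-type libraries without cycloheximide and 424.5 to 806.5 in the 15 mutant libraries, and those of UPF3 were 460.5 to 669 and 104 to 198. The least alike replicates of any group were in upf-30, with a lowest pairwise correlation of 0.867 on the log2 scale, a value that was 0.892 in WT-45. Each marker gene of shoot and root was above 0 in at least 1 library of every group. The summed level of 4 root markers was 29800 to 40090 in WT-0 and 7550 to 12940 in WT-45, and 25790 to 28930 in upf-0 and 4482 to 4787 in upf-45. The 4 did not move alike: in upf-45 against upf-0 PYK10 (-2.59) and COBL9 (-1.99) were lower, WOX5 was higher (2.91, limma adjusted p = 1.1e-09) and RHD6 (-0.45) was not called. Their part in the results was not tested, and in whole seedlings fewer cells of a type and less RNA per cell cannot be told apart.

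Most of the heat transcripts kept an intron that the unheated transcript removed. The stretches below come from 8 of the loci whose results are described later, and they show what the ribosome would read there. Each line gives the last 15 exon bases and then the kept intron up to the first stop codon in the frame of the unheated transcript. Capitals mark the GT at the intron's start and that stop codon. Sequences and coordinates are from the RefSeq copy of TAIR10.1, matched by transcript name.

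AT5G13200 chr5:4207774-4207812 (plus strand): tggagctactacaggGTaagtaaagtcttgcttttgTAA
AT1G23180 chr1:8218795-8218829 (plus strand): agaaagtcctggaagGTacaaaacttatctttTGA
DER1 chr4:14446654-14446705 (plus strand): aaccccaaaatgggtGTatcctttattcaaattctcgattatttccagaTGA
NPC3 chr3:838359-838408 (minus strand): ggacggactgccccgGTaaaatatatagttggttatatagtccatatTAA
SQE6 chr5:8183877-8183912 (minus strand): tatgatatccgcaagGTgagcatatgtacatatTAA
AT3G09360 chr3:2878088-2878114 (plus strand): ctatttgatacatccGTaagttttTGA
MLO4 chr1:3672567-3672651 (minus strand): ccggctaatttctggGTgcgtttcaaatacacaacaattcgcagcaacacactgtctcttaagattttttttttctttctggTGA
SWC2 chr2:15407371-15407461 (minus strand): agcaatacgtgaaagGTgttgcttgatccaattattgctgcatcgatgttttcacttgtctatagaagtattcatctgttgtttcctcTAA

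In AT1G23180, DER1 (AT4G29330), NPC3 (AT3G03520), AT5G13200 and AT3G09360 the kept intron was the last one of the gene. The frame of AT1G23180, an ARM repeat protein, met a stop after 17 intron bases, and reading ended at codon 630 in place of 834. DER1, a Derlin of endoplasmic reticulum-associated degradation, read 215 of 266 codons. NPC3, a phospholipase C, read 419 of 523, and SQE6 (AT5G24160), a squalene epoxidase family member of sterol synthesis, 393 of 517. SWC2 (AT2G36740), a subunit of the SWR1 chromatin remodelling complex, kept its intron 11 of 12 and read 325 of 365.

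Among the 72 loci, 45 heat transcripts (62.5%) kept at least 1 intron that the unheated transcript removed. An intron was counted as kept only if the whole of it lay inside an exon. A transcript that starts inside an intron, and so holds part of it, was not counted. Of the 6162 other loci with at least 2 transcripts and the same total, 30.5% had a second-ranking transcript that kept an intron of the first. The place of the kept intron was taken from the coding part of the unheated transcript. It lay in the coding part in 30 switching loci (41.7%, against 21.8% of the others), in the 5′ UTR in 7 and in the 3′ UTR in 8. All 46 kept introns together had a median length of 86.5 bases, from 63 to 695, and the introns of the other loci had a median of 101. The opposite, an intron kept in the unheated transcript, was found in 7 loci (9.72%, against 12%). These were ACHT4 (AT1G08570), AT1G28350, AT3G13225, AT3G15010, AT3G21215, AT3G51330 and AT3G55050.

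**Figure D1:**
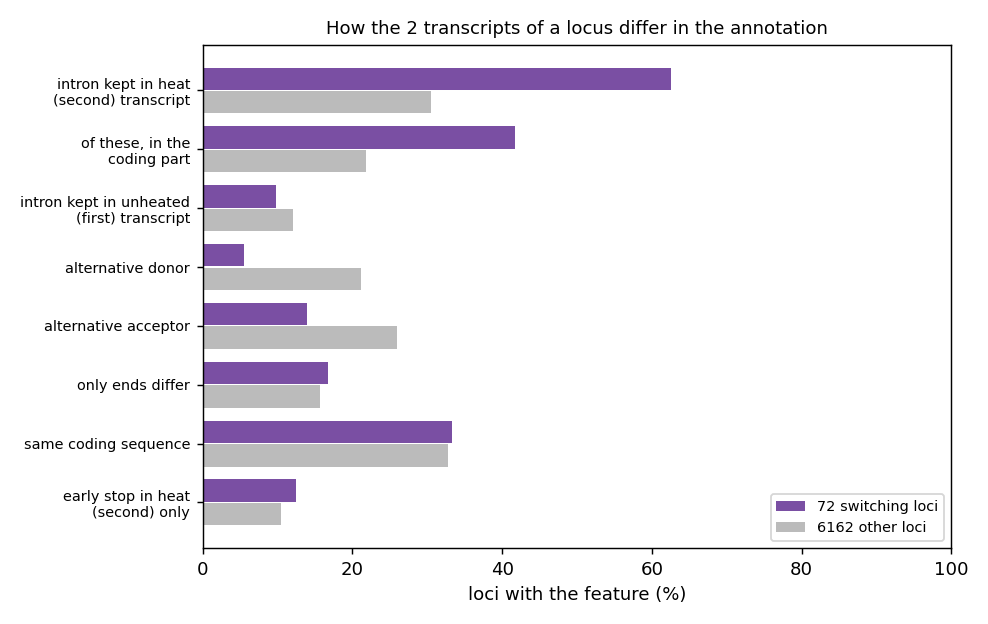
Share of loci (%, x axis) with each difference between their 2 transcripts in the annotation, for the 72 switching loci (purple; heat against unheated transcript) and 6162 other loci (grey; second against first transcript in unheated wild type). An intron kept in the heat transcript was found in 62.5% of switching loci and 30.5% of the others, while 16.7% and 15.7% differed at their ends only.

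Alternative splice sites were a smaller share of the differences than elsewhere. An alternative donor site separated the transcripts in 4 of them (5.56%, against 21.2%) and an alternative acceptor in 10 (13.9%, against 25.9%). In 12 loci only the ends differed (16.7%, against 15.7%). They include DGD2 and AT1G12650, whose heat transcripts start inside an intron of the unheated one. SUB, MLO2, NIK3, AT4G14990, BGLU10 and AT4G38660 are also among them. Their heat transcripts start further downstream and hold 31 to 257 bases that the unheated ones lack. The heat transcript of AT1G44120 starts further upstream and has a 5′ UTR intron that the unheated one lacks. Loci counted here as keeping no intron thus include some whose heat transcript holds part of one. The coding sequence was the same in 24 pairs (33.3%, against 32.7%). An exon was skipped in 3 (4.17%, against 9.22%), and the starts lay more than 25 bases apart in 42 (58.3%, against 60.5%). An annotated stop at least 50 bases before the last junction was found in the heat transcript alone in 9 loci (12.5%, against 10.4%) and in the unheated transcript alone in 4 (5.56%, against 2.32%).

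Read from the unheated start, 25 of the 30 coding introns brought a stop inside the intron, and all 25 of these introns began with GT and ended with AG. In 17 of the 30 the new stop lay at least 50 bases before the last exon junction, the position that commonly marks an RNA for NMD. The median share of the original codons read before the stop was 76.4%. These stops were read from the sequence in the frame of the unheated start, with no test. In 10 of the 30 loci the annotation gives the heat transcript another coding start, so its annotated coding sequence differs from this reading. The annotation itself places such a stop in the heat transcript alone in 9 of the 72 loci, as given above.

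In unheated wild type the heat transcript held a median of 20.5% of the locus total, and after 45 min 65.7%. The unheated transcript held 75.6% and then 31.2%. The order of both transcripts was the same in all 3 libraries of each group in 64 of the 72 loci, and all 6 libraries stood at 60% or more in 25. The 8 loci with a library out of order were AT1G28350, NIK3 (AT1G60800), AT2G31010, SWC2, AT2G46420, AT4G16660, AT5G25280 and AT5G36290. Just inside the rule lay BSM (AT4G02990), a mitochondrial transcription termination factor family member, whose lower share was 60.17%, and RLP1 (AT1G07390), a receptor-like protein, at 60.54%. Just outside lay AT2G25740 at 59.97% and LPAT4 at 59.93%. Locus totals at least doubled in 24 of the 72 and at least halved in 13, and their median was 345 before heat and 467 after 45 min.

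The other wild-type times show when the change of main transcript came. The median share of the heat transcript was 35.4% after 15 min, 62.5% after 30 min and 65.5% after 90 min. It lay above the unheated transcript in 19 loci at 15 min, 63 at 30 min and 68 at 90 min. Of the 72 loci, 19 were first above at 15 min, 44 at 30 min and 9 at 45 min. The first to cross included BPS1 (AT1G01550), a gene that limits a signal from the root, PERK15 (AT1G52290), a proline-rich extensin-like receptor kinase, and DYL1 (AT1G28330), a dormancy-associated protein. BPS1 had heat transcript shares of 17.9, 15.8 and 10.9% in WT-0 and 67.9, 54.9 and 63.7% in WT-15. The share in WT-90 was 70.03, 64.3 and 56.1%. In the mutant BPS1 had 14.7, 18.8 and 12.5% in upf-0 and 72.9, 74.1 and 79.6% in upf-45, without overlap, and its usage rose by 4.11 (SE 0.28, adjusted p = 5.2e-18) (limma diffSplice).

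**Figure D2:**
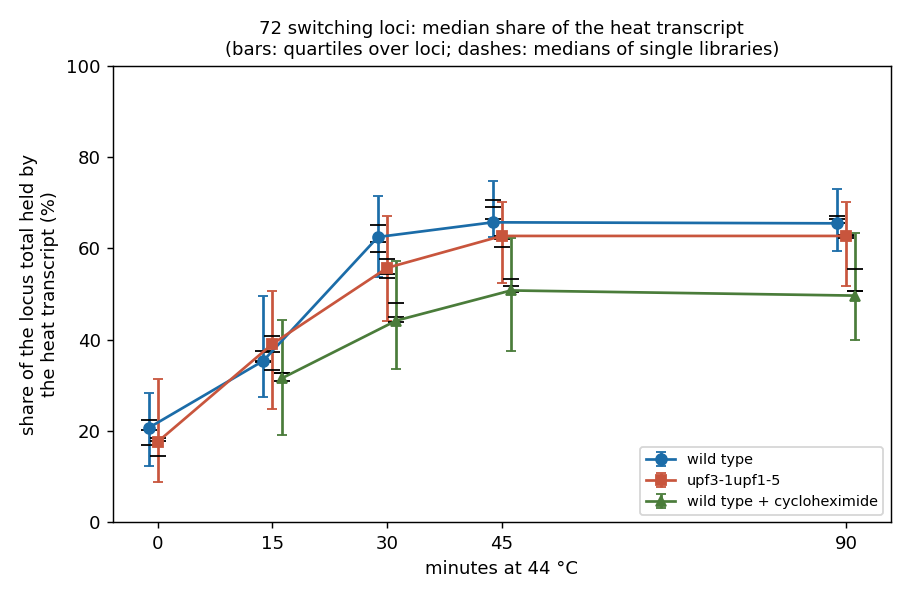
Median over 72 loci of the share of the locus total held by the heat transcript (%, y axis) against minutes at 44 °C (x axis) in wild type, upf3-1upf1-5 and wild type with cycloheximide. Bars are quartiles over loci and black dashes the medians of single libraries. Wild type stood at 62.5% after 30 min, the mutant at 55.7% and the cycloheximide group at 44.2%.

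Replicates of some groups differed in these shares in a way that followed the structure of the transcripts. Over the 45 loci with a kept intron, the median share in the WT-45 libraries was 71.4, 72.4 and 64.3%. Over the 14 loci without one whose heat transcript starts over 25 bases further downstream it was 59.9, 61.4 and 76.0%. The third library was thus the lowest of its group in the first class and the highest in the second. The third library had this place in WT-90 too, with 70.9, 67.2 and 63.3% in the first class and 61.4, 63.2 and 73.4% in the second. In upf-30 the values were 54.0, 57.4 and 49.2% against 56.4, 56.2 and 65.3%. It held as well in WT-30, with 66.9, 66.6 and 64.7% against 47.5, 52.4 and 64.6%, and in WT-C90, with 51.4, 51.3 and 46.3% against 52.7, 51.8 and 74.1%. It did not hold in the other 9 groups, and in WT-C30 the third library was the highest in both classes. WT-30, WT-90, upf-30 and WT-C90 enter the comparisons of cycloheximide or the mutant with wild type. Without the third WT-45 library the rule found 74 loci, of which 57 were among the 72. The part of library quality in these shares was not tested.

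The mutant gave the first comparison that the choice of loci had not used. After 45 min of heat the usage of the heat transcript, its log2 change against that of the locus's other transcripts, was higher than before heat in 51 of 72 loci and lower in 0 (limma diffSplice, adjusted p under 0.05 and at least 1 on the log2 scale). Over all 22958 transcripts tested, 7.1% were higher and 6.76% lower. The median change was 2.92 (log2 usage), the sign was positive in 68 loci, and at an unadjusted p under 0.05 the counts were 58 and 0. The heat transcript lay above the unheated one in 6 mutant loci before heat, 48 after 30 min and 60 after 45 min. Its share in all 3 libraries of upf-45 was above all 3 of upf-0 in 61 loci and below in 1, with a median difference of 44.3 points. Such separation was counted for the 72 loci only, so these counts have no background share.

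Applied to upf-0 and upf-45, the rule itself found 49 loci, of which 34 were among the 72 with the same pair of transcripts. They were 69.4% of the mutant's list and 47.2% of the wild type's. For second transcripts of the other loci the usage was higher in 10.3%, in 18.7% of those that keep an intron of the first transcript and in 6.43% of those that do not. In the switching loci it was higher in 37 of the 45 that keep an intron and 14 of the 27 that do not, with median changes of 3.11 and 1.70.

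**Figure D3:**
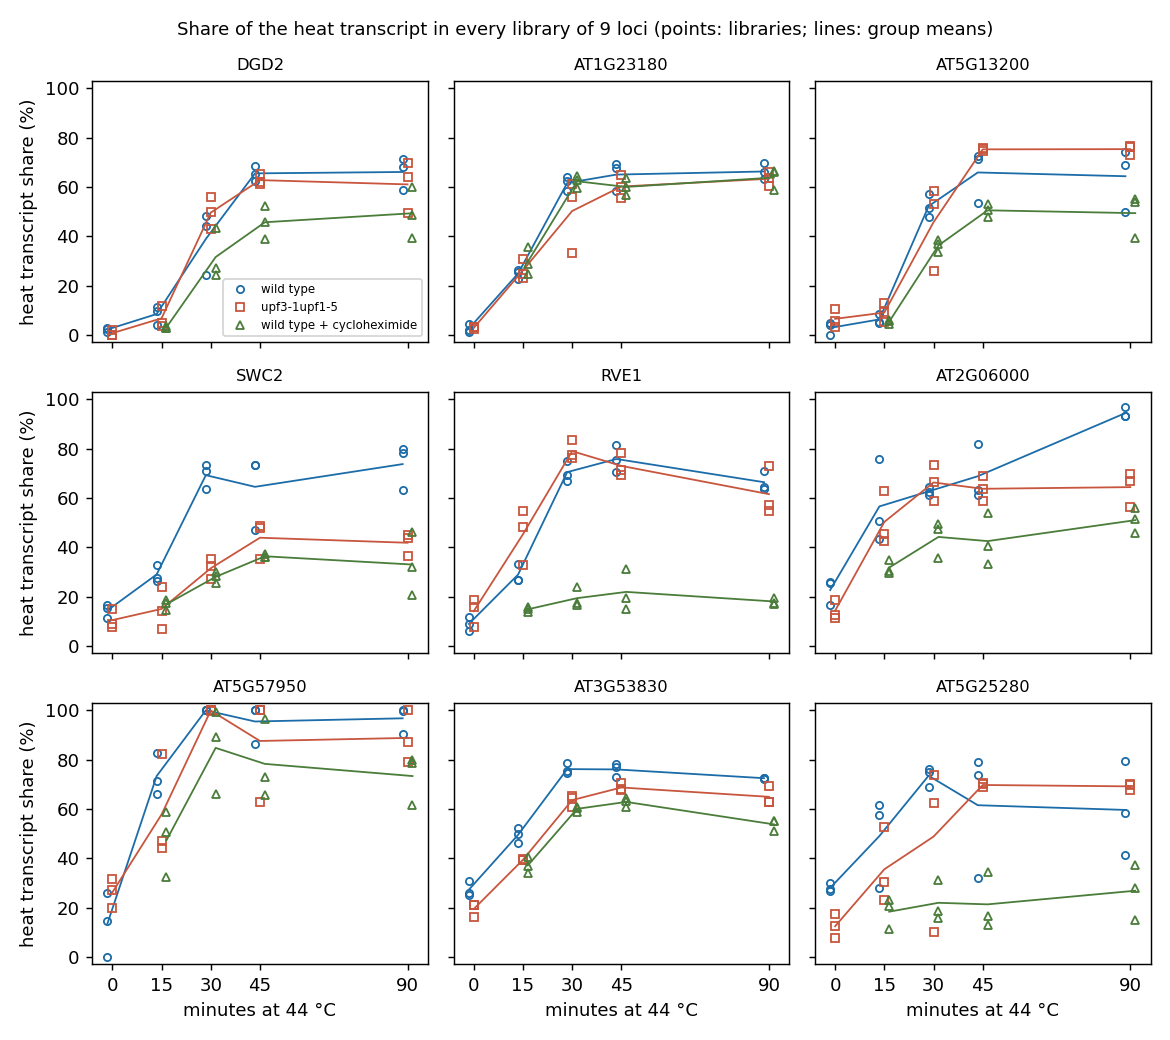
Share of the heat transcript in the locus total (%, y axes) against minutes at 44 °C (x axes) in every library of 9 loci; points are libraries, lines group means. DGD2 and AT1G23180 lay below 5% before heat and above 55% after 45 min in wild type and mutant, and RVE1 stayed below 35% in every cycloheximide library.

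Loci with a kept coding intron and a stop in it gained the heat transcript in the mutant in 21 of 25 cases. AT1G23180 had heat transcript shares of 3.15, 3.04 and 2.33% in upf-0 and 64.8, 55.7 and 60.2% in upf-45. The groups did not overlap, and the usage rose by 5.61 (SE 0.35, adjusted p = 4.9e-20). The transcript's level was 15, 16 and 10.5 normalized counts before heat and 1572, 1519 and 1808 after 45 min, while the unheated transcript stood at 462, 510 and 441 and 856, 1208 and 1198. Both transcripts were higher after heat, the one with the intron by 6.80 (adjusted p = 4e-20) and the other by 1.19 (adjusted p = 1.7e-05) on the log2 scale.

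AT5G13200, which encodes a GRAM domain protein, had the second highest mean total of the 72. Its heat transcript held 3.93, 0 and 4.66% in WT-0, 8.69, 5.28 and 4.94% in WT-15 and 71.4, 72.7 and 53.6% in WT-45. In the mutant it held 3.11, 5.83 and 10.6% before heat and 75.8, 74.8 and 75.3% after 45 min, groups that did not overlap. The usage rose by 5.50 (SE 0.48, adjusted p = 6.8e-14) and the locus total by 5.61 (adjusted p = 8.7e-28). In wild type from 15 to 90 min the usage rose by 4.81 (SE 0.48, adjusted p = 3.6e-11) and with cycloheximide by 4.07 (SE 0.48, adjusted p = 1.3e-08). Its transcripts share 10.9% of their 31-base words with AT3G61320, another of the 72.

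AT3G61320, a bestrophin-like protein, had the largest usage change in the mutant. The heat transcript, which keeps 2 introns and starts 452 bases further upstream, stood at 2, 2.5 and 5.5 normalized counts in upf-0 and 5222, 6027 and 5403 in upf-45. The unheated transcript stood at 142, 136 and 163 and was listed at 0, 0 and 17. The groups did not overlap for either transcript, and the usage rose by 11.22 (SE 1.00, adjusted p = 2.8e-17), a value that depends on the pseudocount because 2 libraries are at 0. The last 189 bases of both AT3G61320 transcripts share words with AT5G13200, so the assignment of reads between these loci is uncertain. The unheated transcript also has no 31-base word of its own.

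AT3G04970, a DHHC-type zinc finger protein, had its unheated transcript at 126, 139 and 134 normalized counts before heat and 0, 3 and 0 after 45 min in the mutant. Its heat transcript, with the first intron kept, stood at 9.5, 1.5 and 8 and 188, 179 and 192. The 2 transcripts moved in opposite directions without overlap between groups, and the usage rose by 6.82 (SE 0.59, adjusted p = 1.8e-16). The locus total differed by 0.69 (adjusted p = 1.2e-05). This unheated transcript likewise lacks a 31-base word of its own.

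Lipid enzymes were 4 of the 72, and the heat transcript's usage was higher in the mutant in 3 of them. Counts for this and the following groups are a description only. They stand beside 51 of all 72 loci and 7.1% of all transcripts, and no group was tested against the rest. DGD2 (AT4G00550), which makes the galactolipid digalactosyldiacylglycerol, had heat transcript shares of 2.78, 2.61 and 1.23% in WT-0 and 62.6, 68.7 and 65.3% in WT-45. In the mutant they were 0, 0 and 2.16% and 62.1, 65.3 and 61.1%, so no library of one group came near the other. The usage rose by 7.82 (SE 0.50, adjusted p = 1.5e-19). The heat transcript of DGD2 has the same coding sequence of 473 codons and keeps no whole intron. It starts 368 bases further downstream, inside the 5′ UTR intron of the unheated transcript, and so holds part of that intron. Its level was 0, 0 and 5 normalized counts before heat and 546, 538 and 555 after, beside 268, 236 and 226 and 334, 286 and 354 for the unheated transcript, whose difference of 0.41 (adjusted p = 0.102) did not reach the threshold of 1.

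NPC3 had heat transcript shares of 7, 11.5 and 14.4% in upf-0 and 79.7, 80.4 and 81.2% in upf-45, again without overlap. The usage rose by 5.08 (SE 0.33, adjusted p = 6.2e-19) and the total by 2.77 (adjusted p = 6e-20). DGK2 (AT5G63770), which makes phosphatidic acid, keeps an intron of its 5′ UTR and codes for the same 712 codons either way. Its heat transcript held 6.90, 7.78 and 4.75% and 61.5, 56.5 and 69.7% of the total, separated groups with a usage gain of 4.57 (SE 0.50, adjusted p = 1.6e-10). The remaining enzyme, SQE6, was the only lipid enzyme of the 4 whose total fell, by 1.83 (adjusted p = 8.4e-08). Its heat transcript held 26.6, 24.3 and 19.9% in upf-0 and 55.4, 42.2 and 46.03% in upf-45, and the usage difference of 0.76 (SE 1.37, adjusted p = 0.826) did not pass the test although the groups did not overlap.

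Proteins of folding and turnover made up 7 of the 72, with usage higher in 6 and totals higher in 4. Totals were higher in 23 of all 72 and in 11.4% of all loci. DER1 rose in both transcripts. Its heat transcript held 14.6, 11.7 and 10.2% in upf-0 and 61.2, 59.6 and 60.5% in upf-45, and the usage rose by 3.44 (SE 0.28, adjusted p = 2.5e-15). The total of DER1 was higher by 4.26 (adjusted p = 1.5e-21). AT2G41160, a protein with a ubiquitin-associated domain, went from 5.64, 5.85 and 3.88% to 81.97, 85.4 and 82.6%, with no overlap and a usage gain of 6.47 (SE 0.33, adjusted p = 1.3e-23). The shares of DER1 were 66.4, 64.4 and 65.4% in WT-90 and 66.4, 67.98 and 63.7% in WT-C90, which overlapped. Those of AT2G41160 were 83.96, 84.2 and 83.1% and 77.5, 77.1 and 69.03%, which did not.

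AT4G16660, of the HSP70 chaperone family, keeps an intron of 344 bases that lies in the 5′ UTR of the unheated transcript. The annotation gives its heat transcript another coding start, with 891 codons against 867. The shares were 14.6, 25.2 and 18.8% in upf-0 and 55.2, 64.3 and 73.8% in upf-45, and the groups did not overlap. The usage rose by 2.95 (SE 0.49, adjusted p = 4e-06). In WT-45 they were 71.5, 73.4 and 44.3%, and the third library lay below the 60% of the rule. AT5G57950, a proteasome regulatory subunit, keeps no intron, and its transcripts differ by 23 bases at the start. Its unheated transcript stood at 226, 182 and 211 normalized counts in upf-0 and 0, 149.5 and 0 in upf-45. One upf-45 library thus kept it while the others were listed at 0, and the usage gain was 7.54 (SE 1.80, adjusted p = 0.00167). CUL3B (AT1G69670), a scaffold of ubiquitin ligases, was the member of the group without a call, and its level differences were -1.53 (adjusted p = 0.00082) for the heat transcript and -1.53 (adjusted p = 0.00024) for the unheated one.

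Factors of RNA and DNA were 12 of the 72, with usage higher in the mutant in 9. RVE1 (AT5G17300), a MYB-like factor linked to the circadian clock, fell by 1.16 (adjusted p = 1.7e-05) in total, while the transcript with intron 3 kept rose. The heat transcript of RVE1 held 7.82, 15.97 and 18.4% in upf-0 and 71.4, 69.4 and 78.2% in upf-45, apart by more than the spread, with a usage gain of 4.13 (SE 0.43, adjusted p = 1.6e-11). Read from the unheated start, it ends after 86 of 387 codons. RAP2.7 (AT2G28550), an AP2 repressor of flowering, had 5.66, 7.96 and 11.3% and 50.7, 47.8 and 56.6%, also without overlap, and its usage rose by 3.03 (SE 0.76, adjusted p = 0.0018).

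HDA08 (AT1G08460), a histone deacetylase, keeps an intron of 659 bases. It held 27.5, 33.6 and 33.7% in upf-0 and 74.1, 79.8 and 74.1% in upf-45, and the usage rose by 2.78 (SE 0.30, adjusted p = 7.2e-11). AT3G15010 and AT3G21215, both RNA-recognition motif proteins, are among the 7 loci with the reverse structure: the unheated transcript keeps an intron of the 3′ UTR. AT3G21215 had heat transcript shares of 35.1, 23.6 and 17.3% in upf-0 and 69.6, 73.4 and 69.8% in upf-45, without overlap, and the usage rose by 1.98 (SE 0.57, adjusted p = 0.0091), a call lost without upf-0 replicate 3 (1.49, adjusted p = 0.13). The level of its unheated transcript fell by 3.40 (adjusted p = 2e-09) on the log2 scale. PMS1 (AT4G02460), a mismatch repair protein, had 10.04, 16.4 and 13.1% and 36.1, 41.3 and 22.1%, and its usage difference of 1.74 (SE 0.63, adjusted p = 0.0512) missed the adjusted threshold.

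Kinases and receptor-like proteins were the group with the most falling totals: 5 of its 9 members had a lower total in upf-45 than in upf-0, and 2 a higher one. Over all 20747 loci tested, 17.7% were lower and 11.4% higher. The lower ones were SUB (AT1G11130), AT1G52310, NIK3, AT2G33170 and AT5G14210. NIK3 had its heat transcript at 932, 532 and 696 normalized counts in upf-0 and 356, 265 and 265 in upf-45, and its unheated transcript at 713, 960 and 664 and 176, 249 and 246. Both fell past the test, and the usage difference was 0.53 (SE 0.46, adjusted p = 0.557). The heat transcript of NIK3 starts 1065 bases further downstream, and its WT-45 shares were 48.7, 50.3 and 80.4%, of which only the third was over 60%.

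The heat transcript of RLP1 starts 271 bases further downstream, and its usage rose by 6.59 (SE 1.48, adjusted p = 0.00035) in the mutant. In wild type from 15 to 90 min the call was lost without any of 4 libraries in turn, with 2.98 and an adjusted p of 0.308 without WT-90 replicate 3. With cycloheximide it was lost without WT-C15 replicate 3 (5.31, adjusted p = 0.0955). Its levels were low, 6.5, 0 and 0 normalized counts in upf-0 and 71.5, 105 and 72.5 in upf-45. Libraries of one group ranged widely, with shares of 44.7, 8.10 and 87.5% in WT-90, and neither of its transcripts has a 31-base word of its own. PERK15, with a kept coding intron of 65 bases, had shares of 30.2, 35.96 and 28.1% and 88.05, 84.3 and 89.3% in the mutant. The groups did not overlap, and the usage rose by 3.87 (SE 0.46, adjusted p = 1.7e-09).

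MLO and disease resistance proteins were 4 of the 72, with usage higher in 2. MLO4 (AT1G11000) had heat transcript shares of 4.52, 2.97 and 10.7% in upf-0 and 65.8, 63.6 and 58.7% in upf-45, without overlap, and the usage rose by 5.39 (SE 1.48, adjusted p = 0.00575). MLO2 (AT1G11310), a susceptibility factor for powdery mildew, had 56.9, 39.5 and 53.5% and 65.5, 57.3 and 42.8%, which overlapped, and the difference was -0.72 (SE 0.65, adjusted p = 0.581). AT1G63860, a TIR-NBS-LRR protein whose heat transcript keeps an intron of the 3′ UTR, went from 5.41, 5.28 and 10.9% to 64.97, 60.1 and 62.5%. That gain was 3.59 (SE 0.73, adjusted p = 9e-05), with no overlap. AT1G59218, a CC-NBS-LRR protein, shares 94.1% of its 31-base words with AT1G58848, and its unheated transcript has no such word of its own, while 406 of the 4017 words of the heat transcript are its own. It had 8.95, 12.6 and 10.5% in upf-0 and 52.5, 47.9 and 39.2% in upf-45, and its difference of 1.37 (SE 0.57, adjusted p = 0.103) missed the test.

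Glycosyl hydrolases were another 4, with usage higher in 3. BGLU7 (AT3G62740), a beta-glucosidase whose heat transcript keeps the last of 12 introns, stood at 7.41, 2.86 and 6.67% in upf-0 and 81.4, 80.5 and 70% in upf-45. The groups did not overlap, and the usage rose by 5.46 (SE 0.97, adjusted p = 1.8e-05). BGLU7 and BGLU10 (AT4G27830) share 11.5% and 27.6% of their words with other loci. The other 32 loci fall in none of these groups, which were drawn up from the annotation after the loci were known, and 23 of them gained usage.

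AT5G25280, a serine-rich protein with the highest mean total of all 72, varied widely between replicates. Its heat transcript, with a 3′ UTR intron kept, held 78.8, 73.8 and 31.9% in WT-45 and 62.3, 73.9 and 10.1% in upf-30, where the third libraries lay far below the others. In the mutant it held 7.56, 17.3 and 12.4% before heat and 70.4, 69.98 and 68.8% after 45 min, which did not overlap. The usage rose by 2.76 (SE 0.61, adjusted p = 0.00038) and the total by 2.33 (adjusted p = 2.9e-16). ACHT4, a thioredoxin of the chloroplast whose heat transcript is shortened at both ends, had 41.8, 23.6 and 30.4% and 70.9, 70.5 and 68.5%. No library overlapped between its groups, and the usage rose by 3.73 (SE 0.92, adjusted p = 0.00161). AT5G36290, of the UPF0016 membrane protein family, had 31.7, 34.8 and 27.7% and 61.8, 55.3 and 63.2%, with no overlap and a gain of 1.72 (SE 0.30, adjusted p = 1.6e-05).

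Among the others with a gain, AT1G63830, a PLAC8 family protein with a 5′ UTR intron kept, had heat transcript shares of 5.32, 10.1 and 7.13% in upf-0 and 74.5, 72.6 and 73.7% in upf-45. The groups did not overlap, and the usage rose by 3.86 (SE 0.58, adjusted p = 3.3e-08). AT3G07140, a GPI transamidase subunit that helps attach lipid anchors to proteins, had 22.4, 25.6 and 26.5% and 63.96, 63.7 and 63.2%, with a gain of 2.40 (SE 0.29, adjusted p = 1.7e-09). BSM had 8.62, 6.31 and 10.2% and 51.5, 56.96 and 49.3%, and its usage rose by 3.60 (SE 0.28, adjusted p = 5e-16). In all 3 loci every heated library lay above every unheated one.

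VPS54 (AT4G19490), a subunit of a complex that tethers vesicles to the Golgi, keeps a 3′ UTR intron in its heat transcript, which held 14.2, 21.6 and 25.1% in upf-0 and 43.9, 56.99 and 51.4% in upf-45. Its usage rose by 2.05 (SE 0.41, adjusted p = 0.00012). LARP1b (AT5G66100), of the La-related RNA-binding proteins, had 6.98, 25.1 and 13.3% and 61.7, 60.7 and 67.6% and a gain of 3.42 (SE 0.40, adjusted p = 8.5e-10). Neither pair of groups overlapped. AT2G21500, a RING finger protein, had 27.03, 15.03 and 21.5% and 60.5, 66.8 and 60.9%, and its usage rose by 2.66 (SE 0.39, adjusted p = 2.9e-07).

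In 21 loci the usage difference in the mutant did not pass the test, and in 4 of them its sign was negative. In simulated data, where few transcripts were changed, this test missed most planted changes. A missing call thus does not show that usage stayed the same. The 21 were SUB, MLO2, DYL1, AT1G28350, AT1G59218, NIK3, CUL3B, AT2G31010, AT2G33170, AT3G09360, AT3G51330, AT3G53830, AT3G55050, PMS1, AT4G14990, EMB2788 (AT4G27010), BGLU10, AT4G38660, SQE6, AT5G26600 and AT5G50780. Besides MLO2, NIK3 and AT1G59218, those with the highest totals were AT3G53830 and DYL1. AT3G53830, of the RCC1 family, had shares of 16.1, 21.2 and 20.9% in upf-0 and 67.5, 70.5 and 68.1% in upf-45, groups that lay far apart. Its usage difference of 3.12 (SE 1.64, adjusted p = 0.237) did not pass, with an SE above that of most loci named here. DYL1 had 24.5, 20.3 and 22.7% and 41.1, 46.6 and 32.3%, so the unheated transcript led in both groups, and the difference was 2.40 (SE 1.23, adjusted p = 0.218). In WT-45 the share of DYL1 was 73.5, 69.3 and 59.3%. The 4 with a negative sign were MLO2, CUL3B, AT2G31010 and AT3G51330. In MLO2 the mean share of the heat transcript was 49.9% in upf-0 and 55.2% in upf-45, so its share and its usage moved in opposite directions. In AT3G51330, an aspartyl protease family member named here after its values were seen, the heat transcript held 46.2, 51.2 and 53.7% in upf-0, 26.3, 35.2 and 17.7% in upf-45 and 19.03, 10.6 and 18.2% in upf-90. Every heated library of these lay below every unheated one, and the usage difference at 45 min was -0.79 (SE 0.99, adjusted p = 0.723).

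In 15 of the 72 loci at least 1 of the 2 transcripts has no 31-base word that sets it apart from all other transcripts, so its estimate rests on reads it shares. These were RLP1, DYL1, AT1G44120, AT1G59218, AT1G63830, CUL3B, RAP2.7, HYP1 (AT3G01100), AT3G04970, AT3G21215, AT3G53830, AT3G61320, PMS1, AT4G38060 and AT5G57950. In RLP1, DYL1, AT1G44120, AT3G53830 and PMS1 this held for both transcripts.

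The levels show which transcript moved. In upf-45 against upf-0 the heat transcript was higher in 51 loci and lower in 5, and the unheated transcript was lower in 31 and higher in 8. Of all 35376 transcripts tested, 12.9% were higher and 12.9% lower. The median log2 differences were 2.21 for the heat transcript and -1.002 for the unheated one. The heat transcript rose while the other fell in 19 loci, and in 24 the heat transcript rose with no call for the other. In 8 loci the unheated transcript fell with no call for the heat transcript. Both rose in 8, among them DER1, AT5G13200 and LARP1b. Both fell in 4, namely SUB, NIK3, CUL3B and AT4G38660. In AT3G51330 the heat transcript fell with no call for the other, and in 8 loci neither passed. The authors' deposited table for the mutant at 45 and 0 min gave 51 heat transcripts higher and 5 lower, and 30 unheated transcripts lower and 8 higher, at the same thresholds. Locus totals were higher in 23 loci and lower in 12, beside 11.4% and 17.7% of all loci, so the count of lower totals was near the background. With all libraries scaled to equal totals, these counts were 16 and 22, and the heat transcript was higher in 42 loci and the unheated one lower in 44.

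From 15 to 90 min of heat in wild type, usage of the heat transcript was higher in 36 loci and lower in 0, beside 4.69% and 4.6% of all transcripts. The median change was 1.85 (log2 usage). With cycloheximide over the same interval it was higher in 15 and lower in 0, beside 1.83% and 1.9%, with a median of 0.97. At an unadjusted p under 0.05 the counts were 42 and 0, and 27 and 0. All 15 loci called with cycloheximide were among the 36 and among the 51 of the mutant, and 56 loci were called in at least 1 of these 3 comparisons. The 15 included AT3G61320, RLP1, DGD2, AT5G13200 and AT1G12650. In the mutant from 15 to 90 min, usage was higher in 29 and lower in 0 (unadjusted 44 and 0), beside 3.52% and 3.35%.

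AT1G12650, an RRP36-like protein of ribosomal RNA processing, shows the change under all 3 conditions. Its heat transcript starts 268 bases further downstream, inside the 5′ UTR intron of the unheated transcript, and has the same 248 codons. It held 22.4, 8.88 and 7.85% in WT-15 and 71.7, 68.4 and 56.6% in WT-90, and 5.52, 17.97 and 3.06% and 56.1, 37.3 and 41.5% with cycloheximide. No groups overlapped across these times, and the usage rose by 3.59 (SE 0.49, adjusted p = 4.4e-08) and 3.63 (SE 0.49, adjusted p = 5.5e-08). DGD2 had 9.67, 4.22 and 11.5% and 68.1, 58.96 and 71.3% in wild type and 3.81, 2.82 and 2.65% and 39.4, 48.5 and 60.1% with cycloheximide. The gains of DGD2 were 4.45 (SE 0.50, adjusted p = 8.3e-10) and 4.69 (SE 0.50, adjusted p = 5.5e-10). BGLU7 rose in usage by 4.49 (SE 0.97, adjusted p = 0.0008) in wild type, while with cycloheximide the difference of 2.74 (SE 0.97, adjusted p = 0.119) did not pass.

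Cycloheximide was then compared with no cycloheximide at the same times, over the mean of 15, 30 and 90 min. The WT-45 libraries were left out, since they chose the loci. Usage of the heat transcript was lower with cycloheximide in 18 of 72 loci and higher in 0, beside 6.43% and 6.15% of all transcripts, and the unadjusted counts were 33 and 3. The median difference was -0.69 on the log2 scale, and the sign was negative in 56 loci. Among the 45 loci with a kept intron, 14 were lower with a median of -0.86, and among the other 27, 4 were lower with a median of -0.09. These loci were chosen for a large shift in wild type without cycloheximide, so a smaller shift in any other group lies on this side.

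The median share of the heat transcript with cycloheximide was 31.5, 44.2, 50.8 and 49.6% at 15, 30, 45 and 90 min. In wild type without it the medians at these times were 35.4, 62.5, 65.7 and 65.5%. At 30 min all 3 cycloheximide libraries lay below all 3 of wild type in 37 loci and above in 3, with a median difference of -15.3 points. At 15 min these counts were 26 and 2, with a median of -6.91 points, and at 90 min 34 and 1, with -12.1 points. Separation was again counted for the switching loci only, with no background share. By the usage test, the calls were 0 lower at 15 min (0 higher), 13 lower and 1 higher at 30 min, and 11 lower and 0 higher at 90 min. The background at 30 min was 3.68% lower and 3.62% higher, and at 90 min 3.01% and 3.21%. At 15 min it was 0.54% and 0.697%, with unadjusted counts of 11 lower and 1 higher. In 26 loci the heat transcript was above the unheated one at none of the cycloheximide times.

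**Figure D4:**
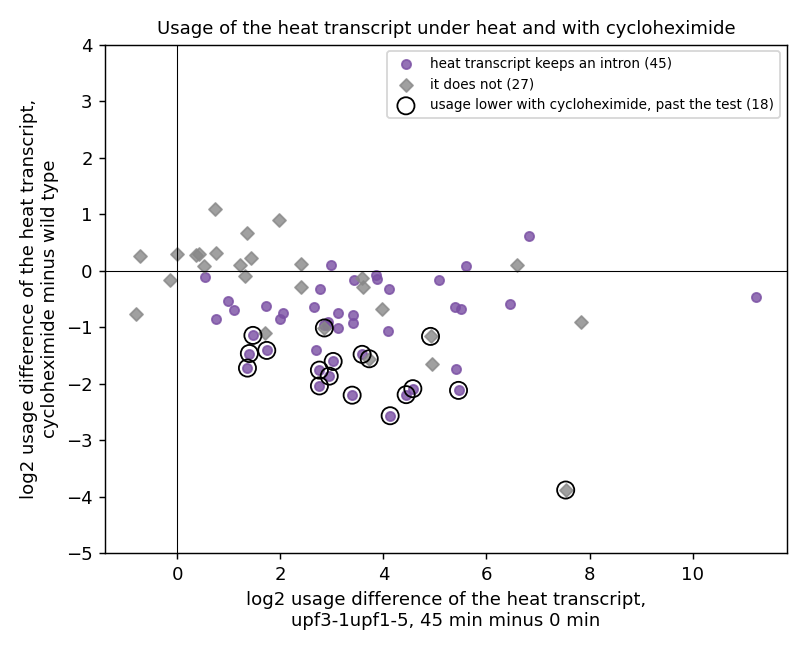
Log2 usage difference of the heat transcript with cycloheximide against without it (y axis, mean of 15, 30 and 90 min) plotted against that of upf3-1upf1-5 at 45 min against 0 min (x axis), 1 point a locus. Circles keep an intron in the heat transcript, diamonds do not, and black rings mark the 18 loci past the test with cycloheximide. Most points lie right of 0 and below 0: 68 of 72 were positive on the x axis and 56 negative on the y axis.

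RVE1 had the second largest difference. Its heat transcript held 66.9, 69.5 and 75.1% in WT-30 and 17.5, 16.5 and 24.03% in WT-C30, and 64.4, 70.98 and 63.8% in WT-90 and 19.6, 17.4 and 17.02% in WT-C90. At both times every cycloheximide library lay below every other, and the usage difference was -2.57 (SE 0.25, adjusted p = 3.8e-12). The unheated transcript stood at 150.5, 132 and 85 normalized counts in WT-30 and 396, 555 and 372 in WT-C30, and was higher over the 3 times by 1.79 (adjusted p = 1.3e-10). In the mutant the share at 30 min was 77.4, 76.1 and 83.6%, and the usage difference from wild type was 0.46 (SE 0.25, adjusted p = 0.241).

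FKD1 (AT3G63300), a gene of leaf vein patterning that keeps its first intron, had shares of 82.6, 60.9 and 74.9% in WT-30 and 17.9, 20.7 and 26.4% in WT-C30. The groups did not overlap, and the usage difference over the 3 times was -2.19 (SE 0.24, adjusted p = 3.3e-10). AT5G57950 had the largest difference, -3.88 (SE 1.04, adjusted p = 0.00564). Its unheated transcript was listed at 0, 0 and 0 in WT-30 and stood at 102, 36.5 and 3 in WT-C30. BGLU7 had 79.3, 77.7 and 96.9% in WT-90 and 34.3, 62.7 and 51.04% in WT-C90, without overlap, and a difference of -2.12 (SE 0.56, adjusted p = 0.00491).

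AT5G25280 and DGK2 were lower as well. The heat transcript of AT5G25280 held 75.1, 76.2 and 69.1% in WT-30 and 18.6, 31.3 and 15.9% in WT-C30, and the usage difference was -1.76 (SE 0.35, adjusted p = 9.6e-05). For DGK2 the shares were 72, 70.1 and 67.6% and 29.2, 23.6 and 30.3%, and the difference was -2.09 (SE 0.29, adjusted p = 1.8e-07). Both kept introns lie outside the coding part. AT1G23180, by contrast, had 58.5, 62.4 and 64.1% in WT-30 and 62.99, 59.7 and 64.3% in WT-C30, which overlapped, and a difference of 0.08 (SE 0.20, adjusted p = 0.858). NPC3 had 80.6, 85.2 and 80.3% and 82.2, 78.7 and 77.4%, which also overlapped.

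In levels, the heat transcript was lower with cycloheximide in 14 loci and higher in 0 (limma, unadjusted 44 and 10), and the unheated transcript higher in 13 and lower in 1. Of all transcripts, 4.4% were lower and 8.77% higher. AT4G16660 had the largest fall of a heat transcript, a level difference of -2.06 (adjusted p = 1.2e-07), from 2254, 1652 and 882 normalized counts in WT-90 to 277, 292 and 114 in WT-C90, with no overlap. The locus totals were lower in 1 locus, DER1, and higher in 0, beside 1.08% and 8.64% of all loci. That of DER1 differed by -1.31 (adjusted p = 1.6e-13). Unadjusted, totals were lower in 34 and higher in 21. The summed level of the 4 root markers was 31360 to 37990 in WT-15 and 32200 to 36750 in WT-C15, 9938 to 17010 in WT-30 and 26130 to 32610 in WT-C30, and 5336 to 6256 in WT-90 and 3234 to 3990 in WT-C90. It thus overlapped at 15 min, was higher with cycloheximide at 30 min and lower at 90 min. Over the 3 times RHD6 was called higher (1.05, limma adjusted p = 2.7e-05), and PYK10 (0.18), WOX5 (-0.97) and COBL9 (-0.01) were not called. The sum of 6 shoot markers was 766300 to 804500 and 620800 to 681200 at 15 min, 955300 to 1033000 and 645600 to 777300 at 30 min, and 926500 to 1310000 and 652100 to 1057000 at 90 min, without and with cycloheximide. The part of these markers in the differences was not tested.

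The mutant was compared with wild type over the same times and against the same wild-type libraries as cycloheximide. Usage of the heat transcript was lower in 6 loci and higher in 1, beside 5.71% and 6.16% of all transcripts, with a median of -0.19 and unadjusted counts of 15 and 7. At 15 min the calls were 0 in both directions (unadjusted 5 lower and 5 higher), beside 1.63% and 1.95%. At 30 min they were 7 lower and 2 higher, beside 3.49% and 3.9%, and at 90 min 2 lower and 0 higher, beside 3.17% and 3.58%. Median heat transcript shares of the mutant were 39.1, 55.7 and 62.7% at 15, 30 and 90 min. Among the 25 loci whose kept intron holds a stop, 4 had lower usage in the mutant, with a median difference of -0.29.

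SWC2 had the largest difference between mutant and wild type. The heat transcript, with the stop shown above, held 73.2, 71.1 and 63.5% in WT-30, 35.1, 32.4 and 26.96% in upf-30 and 25.7, 29.9 and 28.4% in WT-C30. The mutant and cycloheximide libraries lay below every wild-type library at this time and at 90 min, where the shares were 79.7, 78.2 and 63.3%, 36.5, 45.2 and 43.8% and 32.1, 46.2 and 20.7%. The usage difference was -1.88 (SE 0.25, adjusted p = 3.2e-08) for the mutant and -2.04 (SE 0.25, adjusted p = 9.2e-09) for cycloheximide. The unheated transcript of SWC2 stood at 69, 83.5 and 108 normalized counts in WT-30, 292, 246 and 182 in upf-30 and 282, 286 and 243 in WT-C30. PMS1 had 47.5, 90.9 and 48.4% in WT-30 and 34.9, 12.2 and 17.6% in upf-30, which did not overlap, and usage differences of -1.44 (SE 0.36, adjusted p = 0.00281) and -1.41 (SE 0.36, adjusted p = 0.00362).

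AT3G13225, a WW domain protein, is one of the loci whose unheated transcript keeps a coding intron. That transcript stood at 92.5, 76 and 43 normalized counts in WT-30, 302, 320 and 353 in upf-30 and 316, 296 and 247 in WT-C30. Wild type lay below both other groups without overlap. Usage of its heat transcript differed by -1.56 (SE 0.54, adjusted p = 0.0376) in the mutant, and the total was higher by 1.23 (adjusted p = 1.1e-11). The call was lost without upf-90 replicate 1, with a difference of -1.08 and an adjusted p of 0.153, and without 10 other libraries in turn. AT3G21215 was the 1 locus with higher usage in the mutant, by 1.18 (SE 0.33, adjusted p = 0.00653). Its unheated transcript stood at 182, 144 and 120 normalized counts in WT-30 and 75, 60.5 and 59 in upf-30. Without WT-15 replicate 1 the usage difference of AT3G21215 was 0.74 and did not pass (adjusted p = 0.113), and without WT-30 replicate 2 it was 0.96, below the threshold of 1. With lane 2 only it was -0.28, so its direction depends on the lane.

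AT2G06000, a pentatricopeptide repeat protein with a 3′ UTR intron kept in the heat transcript, was lower in both comparisons. The shares were 93.2, 93.3 and 96.8% in WT-90, 67.03, 69.9 and 56.3% in upf-90 and 51.4, 45.7 and 55.96% in WT-C90. At 15 min they were 75.6, 50.7 and 43.4%, 42.6, 45.6 and 62.7% and 30.6, 29.7 and 35.02%. Wild type lay above both other groups at 90 min, and wild type and mutant overlapped at 15 min. Without WT-15 replicate 1 the mutant's difference was -0.93. With all libraries the usage difference of AT2G06000 was -1.12 (SE 0.25, adjusted p = 0.00068) in the mutant and -2.20 (SE 0.25, adjusted p = 9e-10) with cycloheximide. In levels, the unheated transcript was higher in the mutant in 9 loci and lower in 1, and the heat transcript higher in 1 and lower in 0 (unadjusted 11 and 27), beside 8.97% higher and 1.98% lower of all transcripts. Locus totals were higher in 4 and lower in 0, beside 7.76% and 1.13% of all loci, and unadjusted higher in 19 and lower in 29.

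Genes of the splicing and decay machinery were looked at as lists, and none of the listed genes is among the 72. In upf-45 against upf-0, 4 of 20 SR proteins, which choose splice sites, had a higher total and 0 a lower one (limma, unadjusted 8 and 1), beside 11.4% and 17.7% of all loci. They were SR45A (4.16 on the log2 scale), SR30 (2.30), SCL33 (1.78) and SR34B (1.39). Of 18 other splicing factors 1 was higher, STA1 (1.29), and of 14 NMD factors 1 was lower, SMG7L (-1.53). The medians were 0.34, 0.02 and -0.13, beside -0.10 for all loci. All 10 heat genes were higher, with a median of 8.31. With cycloheximide against without it, 0 of the SR proteins (unadjusted 2 higher and 11 lower) and 0 of the splicing factors (unadjusted 0 and 9) passed, 2 NMD factors were higher, and 4 heat genes were lower, beside 8.64% of all loci higher and 1.08% lower.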

How the data were processed

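The deposited main table gives a score per transcript and lane that the authors call normalized counts. The submitters' processing notes name TAIR10, kallisto and sleuth, without saying what each did or in which version. The authors' deposited comparison of the mutant at 45 and 0 min gives a coefficient, taken as log2 since its slope on the log2 differences was 1.004, with p-values. The 2 lanes of a library were averaged, with 84 columns used. Shares are of summed values, with no length correction. Levels and locus totals were tested with limma 3.58.1 (variance trend) and usage with its diffSplice test, on log2(value + 1), 14 group means, features of at least 10 in at least 3 libraries, and Benjamini-Hochberg adjustment over the whole table. Calls are those with adjusted p below 0.05 and a log2 difference of 1 or more. Log2 differences on this scale understate changes of low transcripts. Structures come from the TAIR10.1 annotation. The 72 loci, the gene lists and the tests were chosen with earlier results of these data known. Full values are given for the loci highest in total, with the largest called changes in each comparison, with no gain in the mutant or next to the rule's thresholds, and for examples of each functional group chosen after their values were seen. Scripts were tested on simulated data for upf-45 against upf-0. The usage test recovered 18% of 100 transcripts changed by 1.5 on the log2 scale and 45% of 100 changed by 3. It made 38 false calls among 22370 unchanged transcripts. A missing call is therefore not a missing change. All other transcripts were left unchanged in that simulation, unlike in the data. Those changed were drawn from loci with at least 2 transcripts, not from the 72 alone, so the rates for the 72 may differ. Replicate numbers were not treated as pairs: deviations of same-numbered libraries correlated by -0.18 to 0.24. The alternatives tried were pseudocounts, filters, scaling, other thresholds, single lanes, and leaving out each replicate.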

Additional observations from a re-analysis of the deposited data

Results flagged for a closer look

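AT2G06000 was the 1 locus among the 72 whose change in heat transcript usage from 15 to 90 min differed between conditions past the test (interaction term, limma diffSplice). The gain in usage of its heat transcript was smaller in the mutant than in wild type by 2.80 on the log2 scale (difference -2.80, SE 0.62, adjusted p = 0.0223). It was also smaller with cycloheximide than without it (difference -2.49, adjusted p = 0.0452). Both differences rest on the same wild-type libraries, where the share went from 75.6, 50.7 and 43.4% to 93.2, 93.3 and 96.8%. In the mutant it went from 42.6, 45.6 and 62.7% to 67.03, 69.9 and 56.3%, and with cycloheximide from 30.6, 29.7 and 35.02% to 51.4, 45.7 and 55.96%. Of all transcripts, 0.139% and 0.227% were lower in these tests. For usage of the unheated transcript, 1 of the 72 loci was called higher in the mutant's test and 2 in that of cycloheximide. The background shares were 0.157% and 0.209%.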

How the results depend on the processing

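The rule found 287 loci with a share of at least 50% and 16 with 70%, 95 and 48 with totals of at least 50 and 200, and 70 after division by transcript length, 64 of them shared. It found 72 to 88 when each library was left out, and 39 of the 72 loci were found in all 6 of these runs. In the mutant, rule counts were 53 and 59 by single lanes, a choice made after seeing the data. In upf-45 against upf-0, 0 heat transcripts had lower usage and 1 did with a filter of 20 in 6 libraries, with the logit of the share or with only the groups compared. With cycloheximide, 0 were higher and 1 was with a pseudocount of 5, with lane 1 only or under the replicate block, whose other calls were 18 lower with cycloheximide, 52, 36 and 15 higher over time in the mutant, in wild type and with cycloheximide, and 1 higher and 7 lower in the mutant against wild type; the numbers do not pair the samples. For the mutant against wild type, lane 2 alone gave 2 higher and 3 lower, and the logit 11 lower; the usage difference of AT3G21215 reversed to -0.28 with lane 2. Equal library totals gave 22 lower locus totals in the mutant's heat comparison and 2 higher with cycloheximide, with no share over all loci counted under that scaling. Leaving out each replicate gave usage gains of 48 to 50, 31 to 34 and 15 to 17 in the mutant, wild type and cycloheximide over time, 0 to 2 higher and 16 to 19 lower with cycloheximide, and 0 to 3 higher and 3 to 7 lower in the mutant against wild type. Totals then ranged from 23 to 26 higher and 11 to 12 lower in the mutant's heat comparison, 0 higher and 1 to 2 lower with cycloheximide, and 3 to 4 higher and 0 lower in the mutant against wild type. Of the calls in these 5 comparisons, 37 of 51, 21 of 36, 8 of 15, 10 of 18 and 1 of 7 held under every setting, single lanes included. The causes of these changes were not tested.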
